A study of Homo sapiens with 12 samples.

Results

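The effect of lestaurtinib on the transcriptome of MDAH-2774, a human cell line that the labels assign to endometrioid ovarian cancer, was measured by RNA sequencing in 6 of the 12 libraries of the series. The 6 were chosen by their labels: 3 libraries of cells given 500 nM lestaurtinib for 24 h and 3 libraries of cells given DMSO vehicle. The other 6 libraries hold OVSAHO, an established ovarian cancer line of high-grade serous type, under the same pair of conditions, and are used below only to test where the responses of the lines differ. The labels give the genotype of all groups as WT, all cells grew in RPMI with serum, and no engineered allele is named. Each line is 1 cell line, so the values describe that line and not a tumour type. The labels do not say that the libraries of a group came from separate cultures, so p-values reflect only library-to-library spread, part or all of which may be technical.

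Lestaurtinib is an indolocarbazole compound that binds the ATP site of several protein kinases, among them FLT3, the JAK kinases and TRK receptors. Kinase pathways of this kind reach the genome through a small number of transcription factors. AP-1, a dimer of FOS and JUN proteins, responds to growth factor and MAP kinase signals, NF-kB to cytokine receptors, and TEAD factors to the Hippo pathway through their partner YAP. In ovarian cancer cells these factors are known to control chemokines, matrix proteases, adhesion molecules and survival genes.

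The 3 treated libraries held 44016325 to 48408796 counts and the 3 vehicle libraries 36547466 to 44595957 counts, over the 13869 genes of the deposited table. On the first principal component of the 500 genes with the highest variance, which took 75.6% of it, treated libraries lay between 10.5 and 10.9 and vehicle libraries between -12.3 and -9.49. The number of genes listed at 0 differed between the groups: it was 450, 482 and 475 in the treated libraries, against 760, 896 and 696 in the vehicle libraries. Genes with 1 to 4 counts went the other way, with 188, 166 and 183 in the treated libraries against 49, 47 and 98 in the vehicle libraries. Results on genes of low level are therefore given below with these values in view, and their part in such results was not tested. Epithelial markers of the line were present: EPCAM was at 100, 106 and 107 CPM (counts divided by TMM-scaled library size) in treated libraries and at 97.4, 86.7 and 85.1 CPM in vehicle libraries, and PAX8, the müllerian lineage factor, was at 181, 186 and 183 CPM against 295, 310 and 309 CPM. ESR1, the oestrogen receptor gene, was listed at 0 in the MDAH-2774 libraries. The keratin gene KRT8 averaged 835 CPM in treated and 971 CPM in vehicle libraries, and the epithelial cadherin gene CDH1 8.73 and 6.67 CPM. SOX17 and EMX2 had group means of 0.194 to 0.682 CPM. In treated and vehicle libraries WT1 averaged 17.3 and 21.2 CPM, KRT7 80.6 and 58.5 CPM, KRT18 606 and 677 CPM, and KRT19 183 and 303 CPM. PGR, MUC16 and FOXJ1, also on the marker list, were not among the genes tested. Of the mesenchymal markers, VIM averaged 806 and 1155 CPM, CDH2 64.4 and 99.1 CPM and ZEB1 11.2 and 12.2 CPM. VIM and CDH2 passed the test described below, with log2 changes of -0.52 and -0.62, and ZEB1 did not. Of 19 fibroblast, blood and endothelial markers 3 had values: COL1A1 with a mean of 6.05 CPM against 4.41 CPM, the lysosomal gene CD68, and CDH5, the endothelial cadherin, with a mean of 12.9 CPM against 1.62 CPM, whose part in other results was not tested. In bulk libraries such as these, a change in the level per cell and a change in the share of cells that express a gene cannot be told apart.

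Of 13498 genes tested, 2312 (17.1%) passed an adjusted p of 0.05 in edgeR's quasi-likelihood test with Benjamini-Hochberg adjustment over all genes, which is the threshold for every call below. Treatment raised 1090 of them (8.08% of the genes tested) and lowered 1222 (9.05%). The 2 directions were close to even, with 47.1% of the calls higher. That share depended on scaling: it was 41.9% with RLE scaling and 56.1% with upper-quartile scaling. Limma on log2(RPKM + 1) and log2(RPKM + 0.1), which changes the model as well as the scale, gave 60% and 60.6%. Most changes were small, and 284 genes (2.1%) changed by at least 1 on the log2 scale, 194 up (1.44%) and 90 down (0.667%). In a separate fit of the 10959 genes averaging 5 CPM or more in the 6 libraries, a limit chosen after seeing the data, 130 changed by that much, 61 up and 69 down. Without treated library 1 or treated library 2 the calls numbered 1499 and 1463. The response of 2268 genes (16.8%) differed between MDAH-2774 and OVSAHO in a test of the difference itself.

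The promoters of a few genes illustrate sites that were searched for upstream of the strongly lowered and strongly raised genes. The 250 bases before the RefSeq start are given 5′ to 3′ on the gene's strand, from the RefSeq annotation of GRCh38.p14, with capitals marking matches to the AP-1 motif TGANTCA and the NF-kB motif GGANTTTCC in 5 lowered genes, and to the TEAD motif GGAATG in 2 raised genes. The 5 lowered genes encode the neutrophil chemokines CXCL8 and CXCL1, the urokinase receptor PLAUR, the T-cell costimulatory receptor TNFRSF9 (4-1BB) and the calcium-binding protein S100A2, and the 2 raised genes encode the matrix proteins CCN2 and THBS1.
CXCL8, chr4:73740319-73740568, plus strand: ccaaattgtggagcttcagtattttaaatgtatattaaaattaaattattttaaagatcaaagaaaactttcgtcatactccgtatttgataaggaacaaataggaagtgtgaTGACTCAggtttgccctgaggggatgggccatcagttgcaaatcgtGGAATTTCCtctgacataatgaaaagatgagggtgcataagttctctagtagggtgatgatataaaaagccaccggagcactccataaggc
CXCL1, chr4:73869143-73869392, plus strand: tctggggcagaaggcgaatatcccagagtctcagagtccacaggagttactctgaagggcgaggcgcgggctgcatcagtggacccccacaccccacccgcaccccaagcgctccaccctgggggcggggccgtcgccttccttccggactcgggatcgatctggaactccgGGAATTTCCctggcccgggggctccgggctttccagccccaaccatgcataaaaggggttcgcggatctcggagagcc
PLAUR, chr19:43670170-43670419, minus strand: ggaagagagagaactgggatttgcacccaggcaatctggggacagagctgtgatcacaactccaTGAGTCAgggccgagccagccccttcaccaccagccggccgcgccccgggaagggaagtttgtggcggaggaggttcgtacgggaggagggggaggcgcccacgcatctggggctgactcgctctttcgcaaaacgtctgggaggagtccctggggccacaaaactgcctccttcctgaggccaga
TNFRSF9, chr1:7940840-7941089, minus strand: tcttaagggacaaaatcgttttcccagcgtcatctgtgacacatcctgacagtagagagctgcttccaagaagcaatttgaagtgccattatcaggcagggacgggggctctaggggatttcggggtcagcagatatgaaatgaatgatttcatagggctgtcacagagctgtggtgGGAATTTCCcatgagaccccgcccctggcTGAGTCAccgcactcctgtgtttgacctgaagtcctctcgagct
S100A2, chr1:153565845-153566094, minus strand: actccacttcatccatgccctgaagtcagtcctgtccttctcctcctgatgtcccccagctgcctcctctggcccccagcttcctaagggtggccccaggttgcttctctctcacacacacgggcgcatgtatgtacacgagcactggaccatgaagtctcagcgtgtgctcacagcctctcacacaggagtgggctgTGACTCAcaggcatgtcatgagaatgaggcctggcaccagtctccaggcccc
CCN2, chr6:131951373-131951622, minus strand: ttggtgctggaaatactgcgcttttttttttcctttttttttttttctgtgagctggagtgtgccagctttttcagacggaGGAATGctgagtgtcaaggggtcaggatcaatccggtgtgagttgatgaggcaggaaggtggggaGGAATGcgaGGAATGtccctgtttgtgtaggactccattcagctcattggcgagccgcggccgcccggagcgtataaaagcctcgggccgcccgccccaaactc
THBS1, chr15:39580829-39581078, plus strand: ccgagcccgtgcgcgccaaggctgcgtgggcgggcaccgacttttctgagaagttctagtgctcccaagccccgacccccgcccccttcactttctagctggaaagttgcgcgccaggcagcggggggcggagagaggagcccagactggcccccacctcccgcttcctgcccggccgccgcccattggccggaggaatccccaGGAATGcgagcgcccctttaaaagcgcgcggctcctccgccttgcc

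In CXCL8 the AP-1 match lies 137 to 131 bases and the NF-kB match 91 to 83 bases before the start. CXCL1 holds its NF-kB match at 78 to 70 bases and TNFRSF9 at 73 to 65 bases, the same 9 letters in all 3 genes. The AP-1 match lies at 186 to 180 bases in PLAUR, 44 to 38 bases in TNFRSF9 and 52 to 46 bases in S100A2. CCN2, a classic YAP and TEAD target, holds 3 TEAD matches, at 169 to 164, 104 to 99 and 95 to 90 bases, and THBS1 holds 1 capitalised match at 46 to 41 bases.

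CXCL8 was at 49.3, 48.0 and 45.0 CPM in treated libraries, against 160, 167 and 181 CPM in vehicle libraries, a log2 change of -1.84 ± 0.17 (SE; adjusted p = 9.7e-07). PLAUR was at 16.3, 16.2 and 15.7 CPM in treated libraries, against 58.0, 59.9 and 55.2 CPM in vehicle libraries, also a log2 change of -1.84. TNFRSF9 was at 7.4, 8.94 and 6.16 CPM in treated libraries, against 15.2, 19.2 and 17.8 CPM in vehicle libraries, a log2 change of -1.21 ± 0.24 (adjusted p = 0.0017). In each of these genes the treated libraries lay far below the vehicle libraries. CCN2 was at 8.5, 7.5 and 7.02 CPM in treated libraries, against 3.37, 3.68 and 4.33 CPM in vehicle libraries, a log2 change of 1.02 ± 0.18 (adjusted p = 0.00078). CXCL8 and CXCL1 moved the other way in OVSAHO, with log2 changes of 1.49 and 1.43, while CCN2 was higher there too (1.68).

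Both strands of the same window were searched in 10281 tested protein-coding genes with a promoter in the RefSeq table, with 7 motifs in all. The AP-1 letters were present upstream of 11 of 66 genes lowered by at least 1 on the log2 scale (16.7%), 6 of 140 raised by that much (4.29%) and 3.73% of all. The lowered genes with a match include PLAUR, ENO2, LCN2 (the siderophore-binding lipocalin), EMP1, S100A2 and S100A3. The NF-kB letters were present upstream of 6 of 66 (9.09%), namely CXCL1, CXCL2, CXCL8, TNFRSF9, TMEM106A and NFKBIZ, the last of which encodes an atypical inhibitor protein of the pathway. CXCL1, CXCL2 and CXCL8 are related chemokine genes, each counted separately. The NF-kB letters were found upstream of 1 of 140 raised genes (0.714%) and of 1.52% of all. For the TEAD letters the order was the reverse, with 2 of 66 lowered (3.03%) and 20 of 140 raised genes (14.3%), against 9.3% of all. Over the 1022 genes lowered by any amount, AP-1 letters were present in 3.82% and NF-kB letters in 2.15%, beside 3.73% and 1.52% of all. The CRE motif TGACGTCA, the E2F motif TTTCCCGC, the FOXO motif TGTTTAC and the ETS motif CCGGAAGT were found in 1, 0, 1 and 1 of the 66 lowered genes. Their shares in the raised genes and in all tested genes are drawn in the plot of motif shares. By themselves these counts do not show whether the motifs were rarer in lowered genes than in all. The capitalised matches do not overlap each other, a match is a description and not a bound site, and the genes were grouped by the same contrast, so these shares carry no test.

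**Figure D1:**
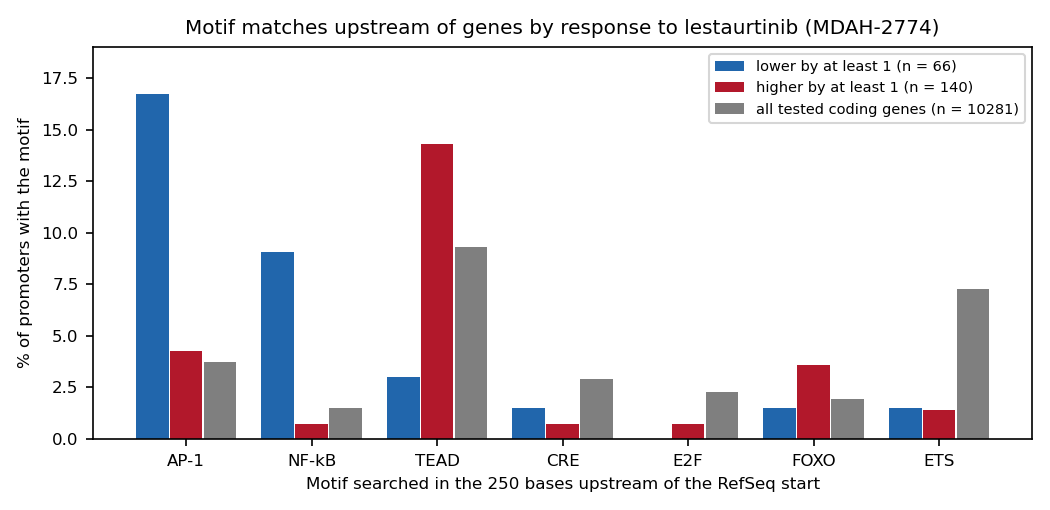
Share of promoters holding each of 7 motifs in the 250 bases upstream of the RefSeq start, in percent, for protein-coding genes lowered by at least 1 on the log2 scale (blue, 66 genes), raised by at least 1 (red, 140 genes) and all tested (grey, 10281 genes). AP-1 matches reach 16.7% and NF-kB matches 9.09% in the lowered genes, and TEAD matches 14.3% in the raised genes.

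At a mean of at least 5 CPM the shares were similar. AP-1 letters stood in 8 of 50 lowered genes (16.0%), 1 of 46 raised genes (2.17%) and 3.37% of all genes at that level. NF-kB letters stood in 6 of 50 (12%), none of 46 and 1.56%, and TEAD letters in 1 of 50 (2.0%), 7 of 46 (15.2%) and 9.04%.

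Beyond the 10 most lowered genes of the line, ranks 11 to 30 by log2 change held secreted and signalling proteins, survival genes and metabolic enzymes. KCNK3, an acid-sensitive background potassium channel (chr2:26692713-26731198), was at 28.8, 25.8 and 25.7 CPM in treated libraries, against 85.6, 82.2 and 84.6 CPM in vehicle libraries, a log2 change of -1.65 ± 0.22 (adjusted p = 6.3e-05). CXCL1 was at 116, 107 and 110 CPM in treated libraries, against 339, 321 and 379 CPM in vehicle libraries (-1.64 ± 0.18, adjusted p = 6e-06). SEC14L2, a lipid-binding protein of the SEC14 family, was at 37.7, 37.0 and 36.9 CPM in treated libraries, against 101, 109 and 106 CPM in vehicle libraries (-1.5 ± 0.09, adjusted p = 1.2e-08). The groups of these 3 genes stood well apart and had no overlap. KCNK3 lost its call in DESeq2 (adjusted p = 0.17), as did LIPG, the endothelial lipase (0.34), and TGFBI, a secreted matrix protein (0.61). LIPG averaged 35.8 CPM in treated and 103 CPM in vehicle libraries, and TGFBI 139 CPM in treated and 346 CPM in vehicle libraries.

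Members of the BCL2 family with opposite roles were both lower. BCL2A1, which restrains apoptosis, was at 2.99, 4.57 and 3.51 CPM in treated libraries, against 12.9, 9.19 and 11.3 CPM in vehicle libraries (-1.59 ± 0.31, adjusted p = 0.0035). BMF, which promotes it, was at 7.95, 7.03 and 5.97 CPM in treated libraries, against 22.1, 16.9 and 19 CPM in vehicle libraries (-1.47 ± 0.19, adjusted p = 5.7e-05). BMF also fell in OVSAHO (-1.47), and no difference between the lines was detected.

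APOBEC3B, a cytidine deaminase that edits single-stranded DNA, was at 6.95, 6.99 and 6.81 CPM in treated libraries, against 18.6, 23.8 and 18.0 CPM in vehicle libraries (-1.54 ± 0.17, adjusted p = 8.3e-06). ENO2, the neuronal form of the glycolytic enzyme enolase, was at 25.4, 25.6 and 25.7 CPM in treated libraries, against 71.9, 65.8 and 70.7 CPM in vehicle libraries (-1.44 ± 0.11). HDAC5, a class IIa histone deacetylase, was at 6.68, 6.47 and 4.72 CPM in treated libraries, against 15.1, 17 and 16.0 CPM in vehicle libraries (-1.43 ± 0.18). The treated libraries of APOBEC3B and ENO2 were nearly equal to each other, and none of the 3 genes had overlapping groups. CA12, a membrane-bound carbonic anhydrase, had a log2 change of -1.6. ETV4 and ETV5, ETS factors known as targets of ERK signalling, fell by 1.35 and 1.29 on the log2 scale. Further places were held by DTNA, CD68, S100A2, C1QTNF1, DNAJB5 and TUBA4A, with log2 changes of -1.46 to -1.28.

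**Figure D2:**
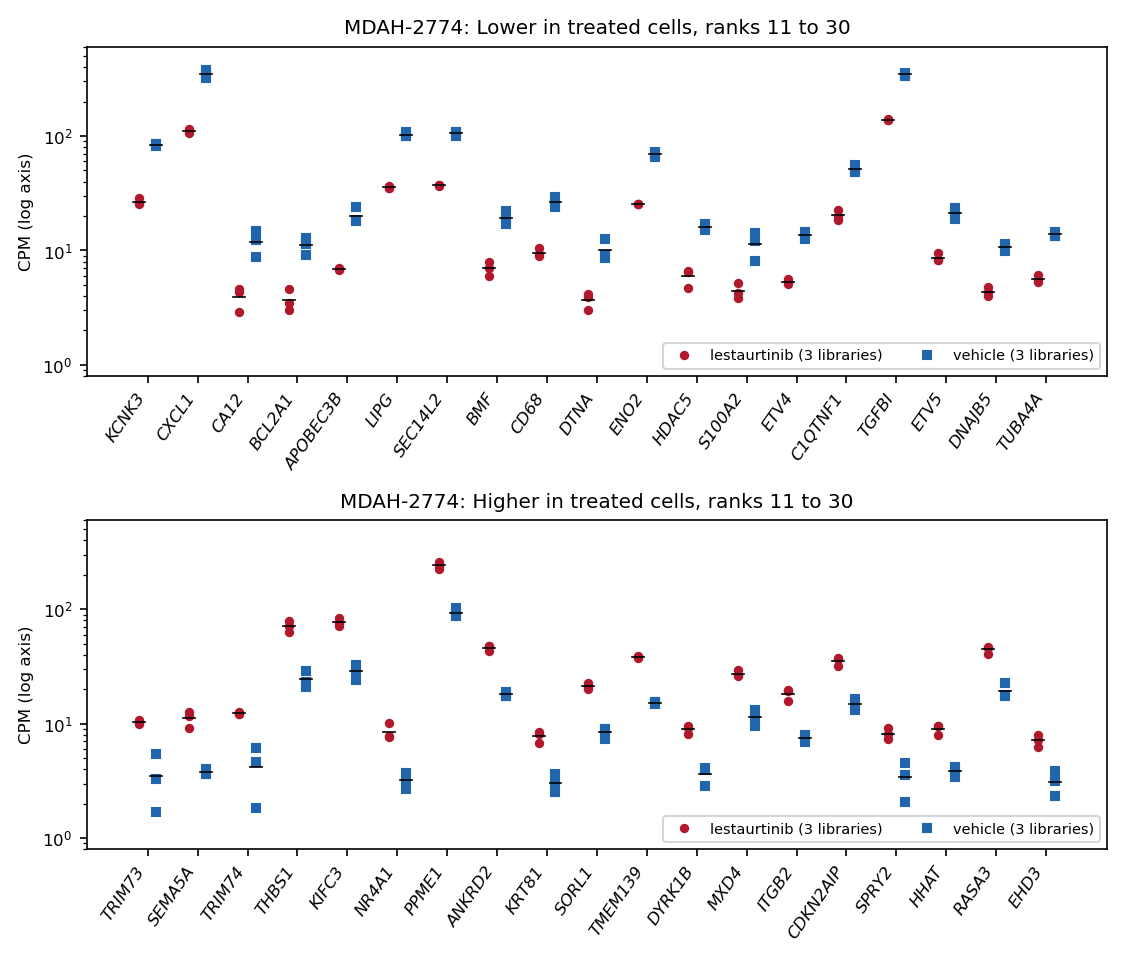
CPM per library on a log axis for the reported genes among those ranked 11 to 30 by log2 change among genes lowered (top) and raised (bottom) by lestaurtinib in MDAH-2774. Circles are the 3 treated libraries, squares the 3 vehicle libraries and lines the group means. In each of the 38 genes shown the groups do not overlap, as the ranking asked and as held for 38.8% of all genes, and the widest spread is that of TRIM73 and TRIM74 in vehicle libraries.

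Among the genes raised at ranks 11 to 30, THBS1, the matrix glycoprotein thrombospondin 1, was at 63.5, 71.3 and 78.3 CPM in treated libraries, against 23.3, 20.9 and 28.9 CPM in vehicle libraries (1.54 ± 0.15, adjusted p = 2e-06). SORL1, a sorting receptor of the endosome, was at 20.1, 21.1 and 22.7 CPM in treated libraries, against 8.93, 7.39 and 8.91 CPM in vehicle libraries (1.34 ± 0.11, adjusted p = 4.5e-07). All treated libraries lay above all vehicle libraries in both genes. In OVSAHO, THBS1 and SORL1 each had a log2 change of -1.14.

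Several of the raised genes act on phosphatases, Ras or the cell cycle. PPME1, the methylesterase of protein phosphatase 2A, was at 224, 241 and 261 CPM in treated libraries, against 102, 88.1 and 90.0 CPM in vehicle libraries (1.37 ± 0.08, adjusted p = 7.4e-09). RASA3, a GTPase-activating protein for Ras and Rap, was at 40.7, 46.0 and 47.1 CPM in treated libraries, against 17.4, 22.5 and 17.9 CPM in vehicle libraries (log2 change 1.21). MXD4, a MAX partner that opposes MYC, was at 26.7, 29.6 and 25.9 CPM in treated libraries, against 9.64, 13.2 and 11.3 CPM in vehicle libraries (1.27). Each was higher in every treated library. SPRY2, a feedback inhibitor of receptor tyrosine kinases, was at 8.06, 7.3 and 9.16 CPM in treated libraries, against 4.57, 3.53 and 2.09 CPM in vehicle libraries (1.26). Its change in OVSAHO was 1.29, whereas DYRK1B, a kinase linked to quiescence, rose by 1.3 on the log2 scale in MDAH-2774 and differed from OVSAHO by 1.33.

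NR4A1, an orphan nuclear receptor of the early response, was at 7.74, 10.1 and 7.72 CPM in treated libraries, against 2.7, 3.3 and 3.73 CPM in vehicle libraries (1.39). SEMA5A, a guidance protein, had a log2 change of 1.56 ± 0.12 (adjusted p = 2.4e-07), the minus-end motor KIFC3 one of 1.42 and the muscle ankyrin repeat protein ANKRD2 one of 1.35. TRIM73 and TRIM74 changed by 1.57 and 1.54, but they are near-identical copies and their counts cannot be separated with certainty. KRT81, a hair keratin with a close relative in KRT86, and ITGB2, the beta chain of leukocyte integrins, passed narrowly (adjusted p = 0.047 each) and lost the call when any 1 library was left out, with adjusted p of 0.07 to 0.16 for KRT81 and 0.089 to 0.18 for ITGB2. ITGB2 also lost it in DESeq2 (0.46).

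Of the 38 ranked genes reported, 22 differed between the lines in the test of the difference, 12 of those raised and 10 of those lowered. The groups of all 38 do not overlap, which the ranking required and which held for 5231 (38.8%) of the genes tested. The ranked genes were chosen for the size of their change, so no weight is put on that share beside the 16.8% of all genes. Among the 22 ranked genes that differed, the widest gaps were those of CXCL1 (-3.07), THBS1 (2.68) and SORL1 (2.47).

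Several genes passed between near absence and a clear level. KLF2, a zinc finger factor of the Kruppel family, was at 3.18, 3.03 and 2.62 CPM in treated libraries, against 0.324, 0.258 and 0.391 CPM in vehicle libraries (3.17 ± 0.55, adjusted p = 0.00069). BDNF, the neurotrophin, was at 4.54, 3.7 and 4.08 CPM in treated libraries, against 0.28, 0.644 and 0.598 CPM in vehicle libraries (3.03 ± 0.27, adjusted p = 8.9e-07). CSF2, the cytokine GM-CSF (chr5:132073792-132076170), went the other way, with 0.0379, 0.308 and 0.19 CPM in treated libraries, against 5.61, 5.28 and 6.42 CPM in vehicle libraries (-4.99 ± 0.74, adjusted p = 0.00029). TMOD1, which caps the pointed ends of actin filaments, was at 1.06, 1.16 and 0.931 CPM in treated libraries, against 7.1, 8.65 and 6.17 CPM in vehicle libraries (-2.79 ± 0.15). All 4 genes had well separated groups. CES3, a carboxylesterase, had 2.73, 3.85 and 3.22 CPM in treated libraries, against 0.539, 0 and 0.138 CPM in vehicle libraries. Among called genes, 0 had no count in any treated library and 38 had none in any vehicle library. Of all listed genes, 293 had no count in the 3 treated libraries and 514 none in the 3 vehicle libraries, and the part of this in these results was not tested.

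Among highly abundant mRNAs the changes were smaller but tight. TGM2, tissue transglutaminase, was at 584, 609 and 590 CPM in treated libraries, against 1126, 1142 and 1177 CPM in vehicle libraries (-0.95 ± 0.05, adjusted p = 3.1e-09). It changed by 1.65 in OVSAHO, a difference between the lines of -2.6. FAT1, an atypical cadherin, was at 716, 690 and 797 CPM in treated libraries, against 428, 403 and 403 CPM in vehicle libraries (0.84 ± 0.06). AHNAK, a giant scaffold protein, was at 1449, 1558 and 1723 CPM in treated libraries, against 1101, 1000 and 1013 CPM in vehicle libraries (0.6). SLC7A5, the large amino acid transporter, averaged 1481 CPM in treated and 967 CPM in vehicle libraries, and TEAD1, the transcription factor, 308 CPM in treated and 180 CPM in vehicle libraries. IGFN1, at a log2 change of 0.56, lost its call in DESeq2 (adjusted p = 0.82) and without treated library 2, vehicle library 2 or vehicle library 3 (0.06, 0.051 and 0.052).

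Gene families and pathways were then counted against the background of 8.08% raised and 9.05% lowered. That background is not matched for level: of 2002 protein-coding genes from 100 CPM upward, 511 were lowered and 197 raised. Lists of abundant genes, such as the proteasome, are to be read beside these counts. The part of gene level in the list counts was not tested. Among the lists plotted, which do not include the small annexin family, those with the highest share lowered were the S100 proteins and the proteasome, and those with the highest share raised were snoRNA host RNAs and collagens. The citric acid cycle and pyruvate oxidation, with 1 raised and 3 lowered of 36, mitochondrial ribosomal proteins, with 7 raised and 2 lowered of 78, and forkhead factors, with 0 raised and 1 lowered of 25, were near or below the background.

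**Figure D3:**
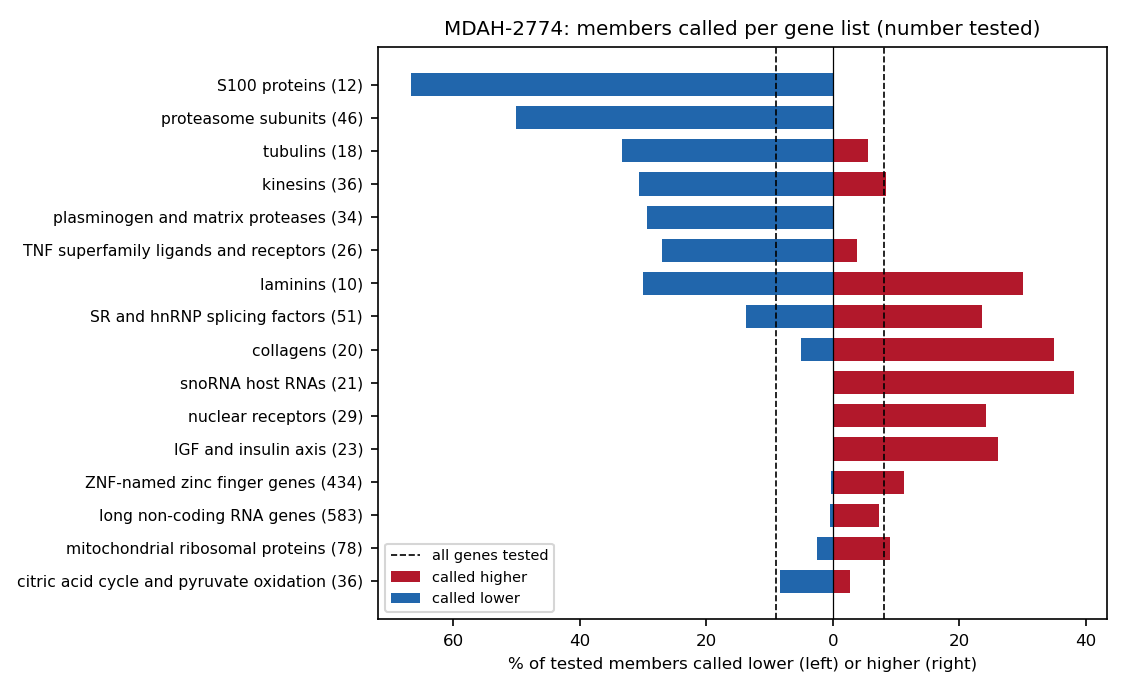
Percent of the tested members of each gene list called lower (blue, to the left) or higher (red, to the right) in treated MDAH-2774 cells, with the number tested in parentheses. Dashed lines mark all genes tested, 9.05% lower and 8.08% higher. S100 proteins reach 66.7% and proteasome subunits 50% on the lower side, and snoRNA host RNAs 38.1% on the higher side.

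S100 proteins, small calcium sensors of which most lie in 1 cluster on chromosome 1, were called lower in 8 of 12 members and higher in none, with a median log2 change of -0.53 against 0.01 over all genes. S100A16 was at 171, 174 and 180 CPM in treated libraries, against 354, 321 and 358 CPM in vehicle libraries (-0.98 ± 0.06, adjusted p = 7.4e-09). S100A6 was at 401, 410 and 425 CPM in treated libraries, against 700.0, 699 and 713 CPM in vehicle libraries (-0.77 ± 0.05, adjusted p = 3.4e-08). S100A2, whose promoter is printed above, was at 4.28, 3.83 and 5.18 CPM in treated libraries, against 14.2, 8.06 and 12 CPM in vehicle libraries (-1.37 ± 0.24, adjusted p = 0.00078). None of these had overlapping groups. S100A11, S100A13, S100A4 and S100A10 fell by 0.53, 0.48, 0.42 and 0.3 on the log2 scale, and S100A3 fell by 1.81 but lost its call without any 1 treated library and without vehicle library 2 or 3. In OVSAHO the changes of S100A16, S100A11 and S100A10 were positive (0.76, 0.42 and 0.48), and 5 of the 12 members differed between the lines, all with the lower value in MDAH-2774. Annexins, which bind membranes and, in ANXA2, the S100A10 protein, had 5 lowered and 2 raised of 9. ANXA2 was at 1213, 1222 and 1313 CPM in treated libraries, against 1986, 1807 and 1812 CPM in vehicle libraries (-0.58), and ANXA3 was raised by 0.42.

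The plasminogen and matrix protease list had 10 lowered and none raised of 34 members, with a median of -0.22. PLAU, the protease urokinase, was at 112, 110 and 121 CPM in treated libraries, against 228, 226 and 221 CPM in vehicle libraries (-0.98 ± 0.1, adjusted p = 3.4e-06), beside its receptor PLAUR. MMP9, gelatinase B, averaged 0.879 ± 0.0848 CPM in treated and 4.27 ± 0.905 CPM in vehicle libraries (SD, n = 3 each), a log2 change of -2.28 ± 0.48 with edgeR's adjusted p of 0.0029. Inhibitors were lowered as well: SERPINE2, protease nexin 1, fell by 0.52 and SERPINB8 by 0.47 on the log2 scale. ADAM17, the sheddase of TNF and EGF-type ligands, was at 93.5, 88.9 and 97.9 CPM in treated libraries, against 119, 116 and 131 CPM in vehicle libraries (-0.39). In OVSAHO the change of PLAU was -1.01 and that of SERPINB8 0.96.

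The list of EGF family ligands, receptors and regulators such as ERRFI1 and LRIG1 had 5 members called of 13, 3 lower and 2 higher. HBEGF, a membrane-anchored EGF receptor ligand, was at 15.1, 15.3 and 16.1 CPM in treated libraries, against 28.6, 30.2 and 31.7 CPM in vehicle libraries (-0.96 ± 0.14, adjusted p = 0.00011). It changed by 0.45 in OVSAHO. AREG, another ligand, averaged 106 CPM in treated and 183 CPM in vehicle libraries but lost its call in DESeq2 (adjusted p = 0.6), and ERRFI1, a feedback inhibitor of the receptor, fell by 0.8 on the log2 scale. The raised receptor genes ERBB2 and ERBB4 had log2 changes of 0.23 and 0.58. The groups of ERBB4 overlap, and its call was lost without treated library 2 or 3 (adjusted p = 0.11 each) or vehicle library 1 (0.12), in limma-voom (0.14), with limma on RPKM (0.24 and 0.083) and with the MDAH-2774 libraries alone (0.14). Without treated library 2 or treated library 3, 3 members were called.

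In the TNF superfamily 7 of 26 members were lowered and 1 was raised. CD40, a receptor that feeds NF-kB, was at 93.9, 91.0 and 87.8 CPM in treated libraries, against 206, 192 and 194 CPM in vehicle libraries (-1.12 ± 0.07, adjusted p = 2.2e-08). In OVSAHO its change was 0.36. The TNF receptor gene TNFRSF1A fell by 0.5 and the TRAIL receptor gene TNFRSF10B by 0.32 on the log2 scale, with TNFRSF9 as given above. LTB, a ligand of the family, was the raised member (1.27), at a mean of 2.13 CPM against 0.872 CPM. In a separate fit of genes with a mean of at least 5 CPM, 7 of 20 members were lowered and none raised.

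Laminins, the trimeric proteins of basement membranes, moved in both directions. LAMB3, a beta chain, was at 36.9, 31.7 and 31.2 CPM in treated libraries, against 68.3, 78.3 and 74.8 CPM in vehicle libraries (-1.15 ± 0.11, adjusted p = 2.3e-06). LAMA3, an alpha chain, averaged 19.4 ± 1.4 CPM in treated and 29.3 ± 1.5 CPM in vehicle libraries (SD, n = 3 each), a log2 change of -0.59. Neither gene had overlapping groups. Both went the other way in OVSAHO, with log2 changes of 0.87 for LAMB3 and 1.2 for LAMA3, and differed between the lines by -2.02 and -1.79. LAMA5, the alpha chain of many epithelial laminins, was at 335, 367 and 294 CPM in treated libraries, against 144, 172 and 209 CPM in vehicle libraries (0.93 ± 0.19, adjusted p = 0.0022). LAMA1 and LAMB2 were raised by 0.84 and 0.36, and of the 10 laminin genes 3 were raised and 3 lowered.

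Collagens had 7 raised and 1 lowered of 20, with a median of 0.4. COL4A1, a basement membrane collagen, was at 1949, 1964 and 1990.0 CPM in treated libraries, against 1324, 1373 and 1404 CPM in vehicle libraries (0.53 ± 0.06, adjusted p = 4.6e-06). Its neighbour COL4A2 was at 1718, 1687 and 1616 CPM in treated libraries, against 1129, 1308 and 1444 CPM in vehicle libraries (0.37), and lost its call without treated library 1, treated library 2 or vehicle library 1 (adjusted p = 0.06, 0.051 and 0.07). The fibril-associated COL12A1, the fibrillar COL27A1 and the transmembrane COL25A1 were raised by 0.36, 0.49 and 1.0, and COL25A1, at a mean of 3.65 CPM in treated and 1.82 CPM in vehicle libraries, lost its call in limma-voom (adjusted p = 0.08) and with limma on log2(RPKM + 1) (0.14). The transmembrane collagen of hemidesmosomes, COL17A1, was the lowered member (-2.8), at a mean of 0.761 CPM against 5.34 CPM. Without treated library 1, 2 or 3, 5, 4 and 5 collagens were called, and without vehicle library 2, 5 were.

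Integrins, the receptors of these matrix proteins, had 5 lowered and 2 raised in a list of 20. That list includes ITGB1BP1, ITGB1BP2 and ITGB3BP, which are not integrins and were not called. ITGB1, the common beta chain, was at 1582, 1528 and 1567 CPM in treated libraries, against 1794, 1796 and 1857 CPM in vehicle libraries (-0.22 ± 0.05). ITGAV fell by 0.38 and ITGA5, the fibronectin receptor chain, by 0.7 on the log2 scale. Only 3 members of the integrin list were called without treated library 1 or 2, and 4 without vehicle library 1 or 2. CD44, the hyaluronan receptor, was at 659, 642 and 646 CPM in treated libraries, against 1210, 1113 and 1210 CPM in vehicle libraries (-0.86 ± 0.11, adjusted p = 3.8e-05). It changed by 1.06 in OVSAHO, and in DESeq2 the MDAH-2774 call was lost (adjusted p = 0.1). In its list of hyaluronan and proteoglycan genes, 2 of 24 members were lowered and 4 raised, among them the syndecan SDC2 (0.69) and the versican gene VCAN (0.63), which was not called in DESeq2 (adjusted p = 0.71).

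**Figure D4:**
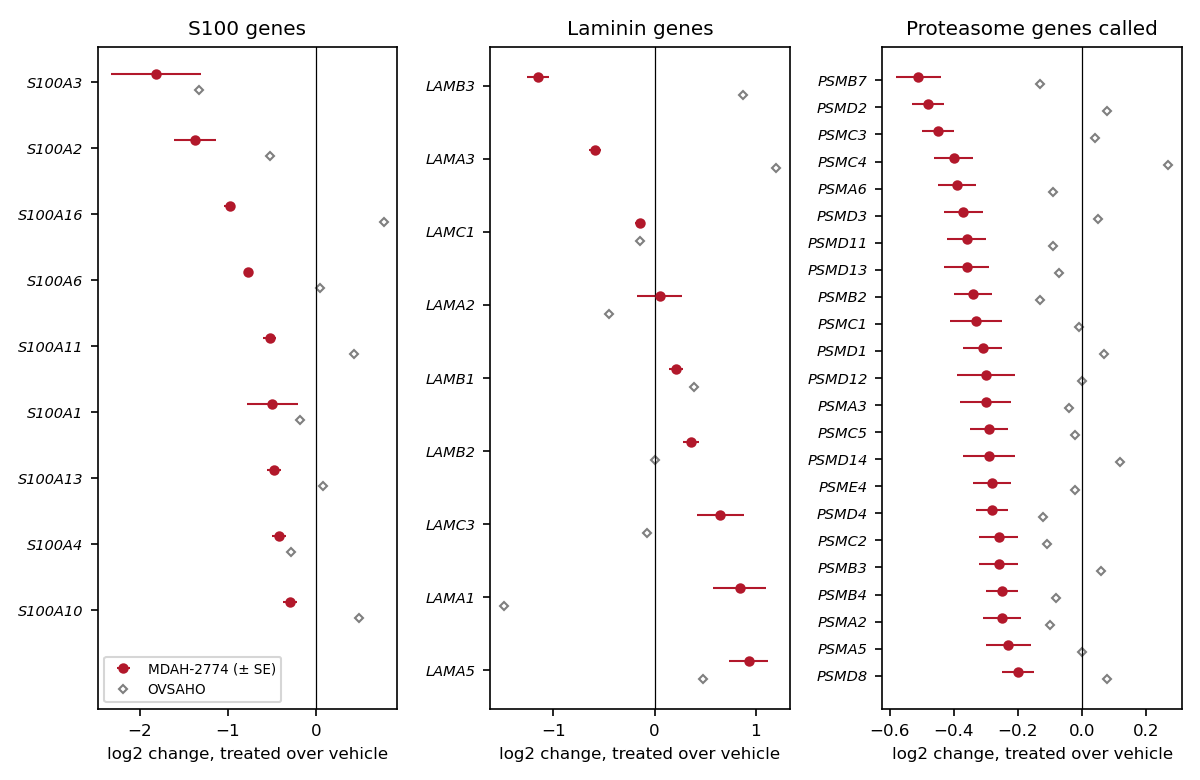
Log2 change, treated over vehicle, in MDAH-2774 (filled circles, ± SE) and OVSAHO (open diamonds) for the reported S100 genes and laminin chains with a mean of at least 0.3 CPM and for the 23 proteasome genes called in MDAH-2774. LAMB3 and LAMA3 lie on opposite sides of 0 in the lines, and the proteasome genes lie between -0.51 and -0.2 in MDAH-2774.

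Of 46 proteasome genes, 23 were lowered and none raised, with a median of -0.22, and the changes were small. PSMD2, a scaffold subunit of the regulatory particle, was at 301, 311 and 326 CPM in treated libraries, against 454, 434 and 425 CPM in vehicle libraries (-0.48 ± 0.05, adjusted p = 2.9e-06). PSMB7, which carries a trypsin-like active site, averaged 141 ± 10.5 CPM in treated and 200 ± 16.0 CPM in vehicle libraries (SD, n = 3 each), a log2 change of -0.51. The ATPase subunit genes PSMC3 and PSMC4 fell by 0.45 and 0.4 on the log2 scale and the core subunit gene PSMA6 by 0.39. The inducible immunoproteasome genes PSMB8, PSMB9 and PSMB10 did not pass the test, with log2 changes of -0.09, -0.14 and -0.08. In 16 members the response differed from OVSAHO, with the lower value in MDAH-2774 each time. Leaving out any 1 library left 18 to 23 calls, all lower, and the scaling alternatives gave 21 to 27.

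Among motors and filaments of the microtubule system, more genes were lowered than raised. Kinesins had 11 lowered and 3 raised of 36, tubulins 6 lowered and 1 raised of 18. KIF3C was at 32.2, 33 and 30.3 CPM in treated libraries, against 62.9, 63.9 and 60.7 CPM in vehicle libraries (-0.97 ± 0.09), and KIF2C, a depolymerase that acts on mitotic chromosomes, at 148, 156 and 160 CPM against 208, 202 and 210 CPM (-0.42 ± 0.05). KIF21B fell by 1.23 on the log2 scale in MDAH-2774 and changed by -1.18 in OVSAHO. TUBA4A was at 5.34, 5.49 and 6.16 CPM in treated libraries, against 13.5, 13.5 and 14.4 CPM in vehicle libraries (-1.28). The near-identical TUBA1A, TUBA1B and TUBA1C, whose reads can be shared, fell by 0.31, 0.24 and 0.36. Without treated library 3 or vehicle library 2, 4 tubulins were called.

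RHOC, a small GTPase of the actin cytoskeleton, was at 181, 181 and 186 CPM in treated libraries, against 333, 362 and 352 CPM in vehicle libraries (-0.94 ± 0.05, adjusted p = 4.7e-09). RND3, another small GTPase, was at 64.0, 64.8 and 58.6 CPM in treated libraries, against 36.7, 25.3 and 28.8 CPM in vehicle libraries (1.04 ± 0.13, adjusted p = 4.5e-05). RAC2 fell by 0.61 on the log2 scale. Semaphorins and plexins had 5 lowered and 3 raised of 22, with SEMA4B at -0.97, SEMA7A at -0.81 against 0.94 in OVSAHO, and PLXNA2 at -1.2. That list had 5 calls without treated library 1, treated library 3 or vehicle library 2.

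Splicing factor genes were called in 19 of 51 members (37.3%), 12 raised and 7 lowered. CLK4, a kinase that phosphorylates SR proteins, was at 23.3, 19.9 and 23.4 CPM in treated libraries, against 9.93, 10.5 and 13.9 CPM in vehicle libraries (0.95 ± 0.14, adjusted p = 0.00019). Its relative CLK1 was at 83.6, 84.4 and 88.3 CPM in treated libraries, against 58.3, 53.3 and 60.9 CPM in vehicle libraries (0.57 ± 0.09, adjusted p = 0.0002). SRSF6 was at 212, 226 and 223 CPM in treated libraries, against 162, 148 and 156 CPM in vehicle libraries (0.51 ± 0.05), and SRSF1 rose by 0.36. SRSF4 fell by 0.35 on the log2 scale. The lower calls numbered 2 with upper-quartile scaling and 9 with RLE scaling, and 10 and 11 members in all were called without treated library 1 and treated library 2.

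In metabolism, serine, one-carbon and amino acid synthesis had 7 raised and 3 lowered of 29 genes. CBS, which makes cystathionine, averaged 120.0 ± 6.06 CPM in treated and 88.4 ± 8.28 CPM in vehicle libraries (SD, n = 3 each), and PYCR1, a proline synthesis enzyme, 233 ± 14.8 CPM in treated and 171 ± 20.1 CPM in vehicle libraries. PSAT1, an enzyme of serine synthesis, was at 474, 460 and 450 CPM in treated libraries, against 347, 355 and 383 CPM in vehicle libraries (0.35 ± 0.05, adjusted p = 0.00018), and changed by -0.47 in OVSAHO. SHMT2, the mitochondrial hydroxymethyltransferase, fell by 0.23 on the log2 scale. The purine and pyrimidine synthesis list had 6 lowered and 1 raised of 32. It includes UPP1, uridine phosphorylase, which cleaves uridine and is not a synthesis enzyme. UPP1 was at 117, 112 and 109 CPM in treated libraries, against 179, 183 and 205 CPM in vehicle libraries (-0.74). TYMS, thymidylate synthase, fell by 0.42 and CTPS1 rose by 0.31. Of 30 genes of iron handling and ferroptosis 6 were lowered and 2 raised, with SLC3A2, a chain of the cystine transporter, at 530, 532 and 522 CPM in treated libraries, against 373, 355 and 380 CPM in vehicle libraries (0.51). The zinc and iron transporter gene SLC39A14 fell by 0.29 and the iron store subunit FTH1 by 0.24. Among 223 solute carriers 27 were raised and 16 lowered (19.3%), near the background of 17.1%, and 24 and 23 were called without treated library 1 and treated library 2. SLC48A1, a haem transporter, was at 129, 131 and 129 CPM in treated libraries, against 85.9, 85.7 and 86.9 CPM in vehicle libraries (0.59), and changed by -0.38 in OVSAHO.

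Nuclear receptors were raised in 7 of 29 members and lowered in none. NR4A2, a relative of NR4A1, was at 6.61, 6.55 and 7.55 CPM in treated libraries, against 3.32, 3.06 and 2.72 CPM in vehicle libraries (1.18 ± 0.25, adjusted p = 0.0029). NR3C1, the glucocorticoid receptor, was at 69.2, 67.5 and 67.2 CPM in treated libraries, against 48.9, 53.7 and 51.3 CPM in vehicle libraries (0.41), and changed by -0.36 in OVSAHO. Without treated library 1, 4 members were called. In the IGF and insulin axis 6 of 23 genes were raised and none lowered, and 3 were called without treated library 3. The 23 include INSIG1 and INSIG2, which are not IGF or insulin signalling genes and were not called. IRS2, an insulin receptor substrate, was at 146, 144 and 129 CPM in treated libraries, against 65.2, 66.5 and 72.9 CPM in vehicle libraries (1.04 ± 0.08, adjusted p = 1.8e-07), and the binding protein genes IGFBP2 and IGFBP4 rose by 0.67 and 0.5 on the log2 scale. IGFBP4 lost its call in limma-voom (adjusted p = 0.074), with the MDAH-2774 libraries alone (0.078) and, narrowly, without treated library 3 (0.05). Of 21 circadian clock genes 3 were lowered and 1 raised, near the 17.1% called of all genes tested. CLOCK, PER1, PER2, PER3 and CRY2 did not pass the test. BHLHE40, a repressor of clock genes, was at 84.0, 94.9 and 97.0 CPM in treated libraries, against 220.0, 225 and 213 CPM in vehicle libraries (-1.25 ± 0.11, adjusted p = 7.5e-07). BMAL1, a core activator of the clock, was at 12.9, 11.2 and 11.9 CPM in treated libraries, against 22.4, 22.3 and 25.3 CPM in vehicle libraries (-0.96 ± 0.18). HOXA3 was at 36.7, 39.8 and 34.1 CPM in treated libraries, against 18.1, 17.6 and 19.8 CPM in vehicle libraries (0.99). Of 26 HOX genes 3 were raised, beside 8.08% of all genes tested.

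Of 14 kinases known to bind lestaurtinib, 7 had values here. AURKB, a mitotic kinase, was at 145, 152 and 155 CPM in treated libraries, against 226, 226 and 229 CPM in vehicle libraries (-0.59 ± 0.06, adjusted p = 3.4e-06). JAK1 was at 331, 331 and 336 CPM in treated libraries, against 403, 376 and 385 CPM in vehicle libraries (-0.22 ± 0.05, adjusted p = 0.0024). AURKA fell by 0.23 on the log2 scale (adjusted p = 0.034) but lost its call in 9 of the alternatives, among them upper-quartile scaling (0.07) and leaving out any 1 treated library (0.057 to 0.13), vehicle library 1 (0.12) or vehicle library 3 (0.058). JAK2 was at 5.83, 5.65 and 6.33 CPM in treated libraries and at 6.95, 2.58 and 4.35 CPM in vehicle libraries, where the groups overlapped (adjusted p = 0.51). JAK3 and TYK2 did not pass the test either.

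Non-coding genes formed the other large class of the table. Of 583 long non-coding RNA genes, 43 were raised and 3 lowered (7.89% called), with a median log2 change of 0.23 against 0.01 for protein-coding genes. Over all genes tested 17.1% were called and 8.08% raised, so this class was not called more often than all genes. Under 1 CPM and from 1 to 5 CPM its medians were 0.3 and 0.27, and those of protein-coding genes 0.23 and 0.17. The summed share of long non-coding RNA genes in the counts was 0.642 ± 0.0036% in treated and 0.529 ± 0.012% in vehicle libraries (SD, n = 3 each, exact two-sided permutation p = 0.1, the smallest that 3 against 3 libraries allow). In a separate fit of the 10959 genes with a mean of at least 5 CPM, 28 were raised and 2 lowered of 169. In OVSAHO 17 of the 583 were raised and 10 lowered, and of the 43 whose response differed between the lines, 34 had the higher value in MDAH-2774. Fewer were called without treated library 1, 2 or 3 (27, 26 and 26). More were called with limma on RPKM, 83 raised and 5 lowered with a pseudocount of 1 and 71 raised and 4 lowered with 0.1. Many of these genes are of low level, where vehicle libraries hold more zeros, and the part of this in the result was not tested.

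Host RNAs of small nucleolar RNAs, which are spliced to release guides for ribosomal RNA modification, were raised in 8 of 21 members and lowered in none. The list includes the protein-coding genes TAF1D, RACK1, CWF19L1 and EIF4A2, of which TAF1D was raised (0.34). Refitted on the 10959 genes with a mean of at least 5 CPM, where p-values are adjusted over fewer genes, 10 of 20 were raised. SNHG32 was at 102, 102 and 102 CPM in treated libraries, against 61.4, 55.7 and 59.5 CPM in vehicle libraries (0.79 ± 0.06, adjusted p = 1.9e-07). ZFAS1 was at 158, 161 and 161 CPM in treated libraries, against 124, 117 and 113 CPM in vehicle libraries (0.44 ± 0.06), and SNHG29 was at 661, 674 and 682 CPM in treated libraries, against 533, 498 and 501 CPM in vehicle libraries (0.4 ± 0.05). GAS5 rose by 0.32. In 6 members, among them TAF1D and EIF4A2, the change was more positive than in OVSAHO, in the test of the difference, and in none more negative. EIF4A2 itself was not called in MDAH-2774 (0.03). Without treated library 2, treated library 3 or vehicle library 3, 5 members were called. Cytosolic ribosomal protein genes, whose mRNAs carry an oligopyrimidine start like several of these hosts, held 7.67 ± 0.13% of the counts in treated and 7.1 ± 0.27% in vehicle libraries (SD, n = 3 each, exact two-sided permutation p = 0.1).

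Among single long non-coding RNAs, LINC00473 (chromosome 6) had 26, 51 and 32 counts in treated libraries and 0, 0 and 0 in vehicle libraries (adjusted p = 2.7e-05). Its ratio was 30.7 with the vehicle group set to 3 counts over the group. The protein-coding genes PDE6B, LRRN2 and SLC7A8 were at 0 in vehicle libraries in the same way, with ratios of 16.4, 16.1 and 15.2. Vehicle libraries listed more genes at 0 and fewer at 1 to 4 counts than treated libraries, so these ratios are not firm lower bounds. MIR31HG, the host of miR-31 (chr9:21454268-21559698), was at 0.928, 1.12 and 0.296 CPM in treated libraries, against 3.54, 3.3 and 3.48 CPM in vehicle libraries (-2.13 ± 0.51, adjusted p = 0.0079). MIR210HG, the host of the hypoxia-linked miR-210, was at 3.54, 3.49 and 2.48 CPM in treated libraries, against 6.95, 7.55 and 7.57 CPM in vehicle libraries (-1.21 ± 0.27, adjusted p = 0.005). These were the 2 microRNA host genes called of 17, both lower. NORAD, an abundant RNA that binds Pumilio proteins, was at 411, 406 and 387 CPM in treated libraries, against 340.0, 335 and 338 CPM in vehicle libraries (0.25), and changed by -0.18 in OVSAHO. LINC00173 and LINC03009 rose by 1.99 and 1.72 on the log2 scale from low levels. GACAT2 (1.85) lost its call without any 1 library. LINC01410 (1.7) lost it when any 1 library other than vehicle library 1 was left out, with adjusted p up to 0.14.

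Antisense-named genes were raised in 12 and lowered in 2 of 244, divergent transcripts raised in 5 of 70, and transcribed pseudogenes raised in 15 and lowered in 1 of 165. Over all genes tested 8.08% were raised and 9.05% lowered, so these classes were raised about as often as all genes or less often. Whether the counting used strand is not stated in the labels or notes read here, so reads of these genes and of genes they overlap cannot be told apart. PCBP1-AS1, at 6.55, 6.65 and 6.56 CPM in treated libraries and 3.93, 2.88 and 2.21 CPM in vehicle libraries, rose by 1.13. PAX8-AS1 was lowered beside PAX8 itself (-0.46, adjusted p = 0.032), but lost its call without any 1 of the treated libraries (adjusted p = 0.087 to 0.1), without vehicle library 1 (0.078) or 2 (0.086) and with limma on RPKM (0.051 and 0.069). Small RNA genes are poorly sampled by a library of this kind: of 90 microRNA hairpin genes 1 was called, and of 119 snoRNA genes 3.

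Zinc finger genes with ZNF names, most of which encode repressors of the KRAB type, were raised in 49 and lowered in 1 of 434 (11.5% called, against 17.1% of all genes tested), with a median of 0.18. Their share of counts was 0.748 ± 0.0072% in treated and 0.651 ± 0.0091% in vehicle libraries (SD, n = 3 each, exact two-sided permutation p = 0.1). ZNF425 was at 14.0, 12.9 and 15.4 CPM in treated libraries, against 8.13, 6.85 and 6.08 CPM in vehicle libraries (1.0 ± 0.17, adjusted p = 0.00055), and ZNF3 was at 62.4, 62.8 and 65.2 CPM in treated libraries, against 51.7, 47.1 and 52.0 CPM in vehicle libraries (0.34 ± 0.06). In OVSAHO 4 were raised and 18 lowered. The response differed between the lines in 62 members, and in 58 of them MDAH-2774 had the higher value. In the refit on genes with a mean of at least 5 CPM, 48 of 307 were raised and 1 lowered. The number called was 26, 23 and 20 without treated library 1, 2 and 3, and 33 without vehicle library 2.

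The direction of change also varied with the level of a gene. Among protein-coding genes with ZNF-named genes left out, the median log2 change was 0.25 under 1 CPM, 0.17 from 1 to 5, 0.12 from 5 to 10, 0.02 from 10 to 30, -0.02 from 30 to 100 and -0.05 from 100 CPM. From 100 CPM upward 195 were raised and 511 lowered of 1998. ZNF-named genes stood at medians of 0.19 and 0.2 from 5 to 10 and from 10 to 30 CPM, where the other protein-coding genes stood at 0.12 and 0.02. Long non-coding RNA genes stood at 0.22 and 0.14 in the same ranges. The bins from 30 CPM hold 13 and 12 long non-coding RNA genes and those from 100 CPM only 4 ZNF-named genes.

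**Figure D5:**
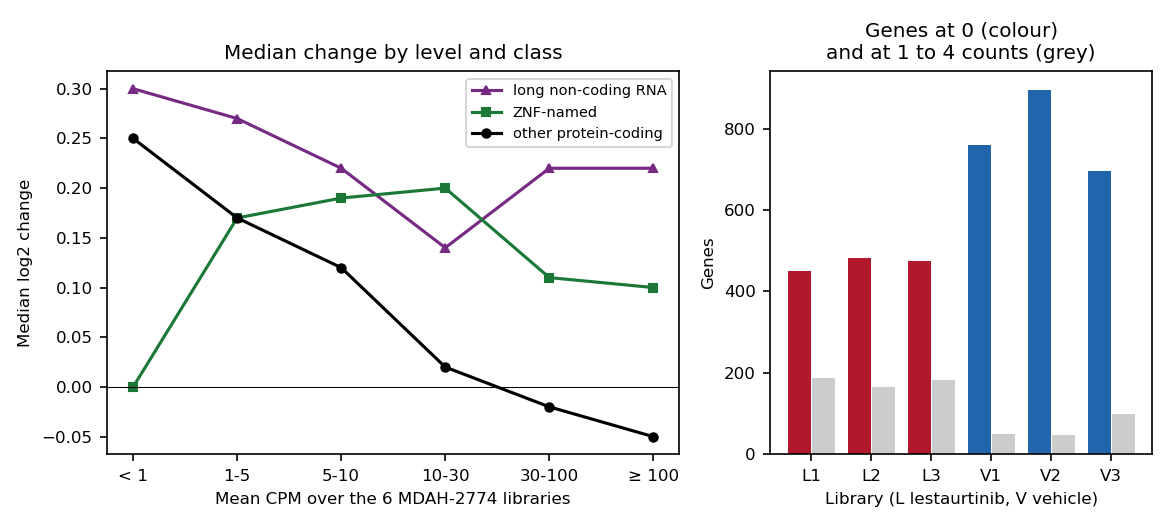
Left, median log2 change by mean CPM over the 6 MDAH-2774 libraries for long non-coding RNA genes, ZNF-named genes and other protein-coding genes. Right, number of the 13869 genes at 0 counts (colour) and at 1 to 4 counts (grey) in each treated (L) and vehicle (V) library. The protein-coding line runs from 0.25 down to -0.05, and the treated libraries hold 450 to 482 genes at 0, against 696 to 896 in the vehicle libraries.

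Some called genes followed each other along a chromosome. Of 13289 genes placed on chromosomes, 148 stood in 45 runs of at least 3 neighbours called in the same direction, 23 higher and 22 lower, and the longest runs held 5 genes. Neighbours are consecutive tested genes, with microRNA and snoRNA genes skipped, so they need not be adjacent. The number of runs to be expected from the shares called was not computed. DNAJB13, the mitochondrial carriers UCP2 and UCP3, C2CD3 and PPME1 were all raised (chr11:73950319-74254703). On chromosome 22, CASTOR1, TBC1D10A, SF3A1, RNF215 and SEC14L2 were all lowered (chr22:30285118-30425303). The third run of 5 holds the near-identical tubulin genes TUBA1A, TUBA1B and TUBA1C between LMBR1L and TROAP (chr12:49097139-49331731). S100A4, S100A3, S100A2 and S100A16 formed a run on chr1:153543619-153613038, and IRS2, COL4A1 and COL4A2 one on chr13:109753837-110513027. Runs can arise where genes overlap or share reads, which was not tested.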

How the data were processed

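RNA sequencing was done on 6 MDAH-2774 and 6 OVSAHO libraries, 3 per group. Per the labels' protocols, a miRNeasy kit gave the RNA for TruSeq stranded mRNA libraries. The tools named in the submitters' processing notes are STAR 2.7.3a and featureCounts, listed there as 2.8.2, with build hg38. The deposited values are raw read counts of each gene (whole numbers, not scaled) and RPKM, both made by the authors. No source read here states whether the counting used strand.

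Counts were fitted with edgeR 4.0.16 (glmQLFit, glmQLFTest; limma 3.58.1, R 4.3.3) in 1 model of all 12 libraries, so that the 4 groups share 1 estimate of the spread, with TMM scaling, filterByExpr at a minimum count of 10 (371 genes removed), no block and Benjamini-Hochberg adjustment over all 13498 genes tested at a threshold of 0.05. The contrasts were treated minus vehicle in MDAH-2774 and the difference of that contrast from the one in OVSAHO. The biological coefficient of variation was 0.125. The steps were checked on simulated counts. Replicate numbers did not pair the libraries (correlations of -0.054, 0.04 and -0.193).

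The ranked genes were those past the threshold that averaged 5 CPM or more, had non-overlapping groups and carried an ordinary gene symbol, at ranks 11 to 30 in each direction. Other genes were the 8 per direction with the largest difference in CPM, the 5 with the lowest p, up to 5 that were under 0.5 CPM in 1 group and at least 2 CPM in the other, the 10 non-coding genes per direction with the largest change, up to 4 members per list, and the kinases and markers. Genes named beyond this rule, among them those whose promoters are printed and several further list members, were picked with their values in view. Some genes that the rule names are left out here. The members and lists were chosen with earlier results of these data known. Lists are described by counts and medians beside all genes, with no test, and some share members. Gene coordinates are on hg38. Promoters of 10736 tested genes came from the RefSeq table of GRCh38.p14, matched by gene ID. Alternatives were RLE and upper-quartile scaling, other filters, limma-voom, DESeq2 1.42.0, limma on RPKM (log2 with 1 or 0.1 added), a replicate block, MDAH-2774 alone and leaving out each library. Tables and plots were made in Python 3.11.15 with pandas 2.3.3, numpy 2.4.6 and matplotlib 3.10.9.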

Additional observations from a re-analysis of the deposited data

Results flagged for a closer look

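The test of the difference between the lines picked out 22 of the 38 ranked genes reported. Values are the log2 change in MDAH-2774 minus that in OVSAHO. The most negative differences were -3.07 for CXCL1, -1.37 for SEC14L2 and -1.35 for APOBEC3B. Further lowered genes gave -1.28 for DNAJB5, -1.11 for ENO2, -1.0 for CD68, -0.95 for TUBA4A, -0.87 for HDAC5, -0.82 for ETV5 and -0.76 for ETV4. Among raised genes THBS1 gave 2.68 and SORL1 2.47, followed by DYRK1B with 1.33, EHD3 with 1.27, SEMA5A and HHAT with 1.25 each, PPME1 with 1.14, RASA3 with 1.12 and MXD4 with 1.02. TMEM139 gave 0.8, KIFC3 0.64 and CDKN2AIP 0.55. THBS1, SORL1 and CXCL1 were called in opposite directions in the lines. No cause of these differences was tested.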

How the results depend on the processing

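No named gene changed its direction under any alternative run. Of the 289 named genes that were called, 0 lost the call with a filter of 1 CPM in 3 libraries and 46 without treated library 2. The calls numbered 1463 to 2098 when 1 library was left out (1499 without treated library 1), against 2312, with 656 to 1005 higher and 807 to 1093 lower. Genes changed by at least 1 on the log2 scale numbered 284, 226 to 320 with 1 library left out, 101 with limma on log2(RPKM + 1), where the pseudocount shrinks low genes, and 130 with a filter of a mean of 5 CPM, an alternative chosen after seeing the data that tests fewer genes (10959). DESeq2 gave 2643 calls and the 6 libraries alone 3064. With the replicate number as a block, 1873 genes were called, 899 higher and 974 lower, and 23 named genes lost the call; same-numbered libraries did not deviate together, so the numbers are only names. List counts moved by more than 1.5 times in 227 combinations of list and setting and by less in 1065. With 3 libraries a group and BCV 0.125, small changes of low genes are not detectable.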
